A study of Mus musculus with 28 samples.

Results

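Wild-type (WT) mouse rods at postnatal day 4 (P4, 3 libraries) were compared with WT rods at day 6 (P6, 4 libraries), which are 7 of the 28 RNA-seq libraries of the series. The libraries were chosen by their labels for age and genotype, not by any measured value. The series covered 5 ages, from P2 to P10, in WT and in rd1 mice, whose rd1 allele inactivates the rod phosphodiesterase gene Pde6b. All WT mice carried TgNrlp-GFP, a transgene in which the promoter of the rod gene Nrl drives green fluorescent protein. Retinas were dissociated with papain and the fluorescent cells were collected by flow cytometry. The rd1 rods used for comparison carried the same transgene on Pde6b rd1/rd1, with 2 libraries at P4 and 3 at P6. Which animals, and how many, went into a library is not given in the sources used here, so the p-values measure the spread between libraries. That spread was estimated over all 10 groups of age and genotype together, not from the 7 libraries alone.

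Rods are the photoreceptors of dim light. A rod precursor leaves the cell cycle, switches on Nrl and with it Nr2e3, and over the following days makes the proteins that capture light, grows an outer segment from a cilium and builds a ribbon synapse onto bipolar cells. Light acts through transducin on a cGMP phosphodiesterase, and the fall in cGMP closes cation channels in the outer segment. Bipolar cells are the interneurons that receive the rod signal, the ON type through the glutamate receptor Grm6.

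The 7 libraries held 12265260 to 14130999 estimated counts each. Replicate 1 at P6 stood apart from the other 6. It had 27119 genes with at least 1 count against 22706 to 23280, and 11.5% of its counts lay in its 10 most abundant genes against 3.39% to 4.27%. Ribosomal RNA made up 4.11% of its counts, against 0.118% to 0.582% elsewhere, and mitochondrial transcripts 6.67% against 2.34% to 3.54%. Fos, an immediate early gene that dissociation can raise, stood at 359.9 CPM in P4 replicate 2 and 270.0 CPM in P6 replicate 1, and at 5.02 to 40.7 CPM in the other 5. CPM are counts scaled to the same total in every library. Xist, of the inactive X, was at 6.73 CPM in P6 replicate 2, and the Y-linked Ddx3y at 0.544 CPM in P6 replicate 4, while the other 5 libraries had at least 947.9 CPM of Xist and 28.3 CPM of Ddx3y. Only autosomal genes were therefore counted.

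Of 17830 autosomal genes tested, 185 (1.04%) passed an edgeR adjusted p of 0.05. At P6, 153 genes (0.858%) were higher and 32 (0.179%) lower. Among them, 121 of the higher and 21 of the lower genes differed by at least 2-fold, and 46 of the higher genes by at least 4-fold. Protein-coding genes made up 145 of the higher and 31 of the lower genes. In 178 of the 185 the 3 P4 and 4 P6 libraries did not overlap. Over all genes tested, 862 (4.83%) had every P6 library above every P4 library and 975 (5.47%) every P6 library below. The count rested on a few libraries. It was 92 without P6 replicate 1, 60 without P6 replicate 4 and 416 without P6 replicate 3, and it fell to 10 without P4 replicate 2 and to 9 without P4 replicate 3. With P6 replicate 1 left out, 85 of the 92 genes were among the 185. The 7 genes called in edgeR whichever single library was left out were Amph, Grm6, Scgn, Stom, Gabrr1, Vsx1 and Gckr, and all of these were higher at P6. With only the 15 WT libraries in the fit it was 29, which held 6 bipolar, 2 glucose metabolism and 1 Muller glia gene of the lists below and no other list member. Higher genes were 82.7% of the calls in edgeR and 42.1% in limma-voom (374 higher, 515 lower), so which direction held more genes depended on the tool. The plot of fold change against level shows the edgeR calls.

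**Figure D1:**
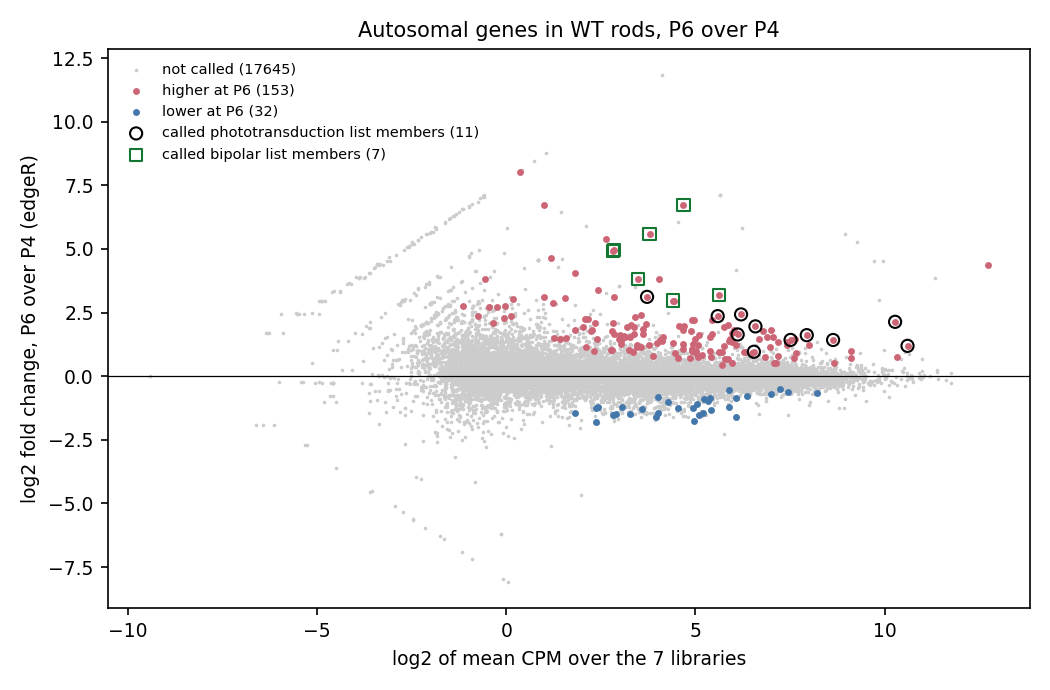
Log2 fold change of P6 over P4 against the log2 mean CPM of the 7 libraries, for each autosomal gene tested. Coloured points passed an adjusted p of 0.05 (153 higher, 32 lower), and open symbols mark the 11 called genes of the phototransduction list and the 7 of the bipolar list, all above 0.

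The genes that specify the rod showed no detected difference between P4 and P6. Nrl, the transcription factor that commits a cell to the rod fate, stood at 2297, 1726 and 1700 CPM at P4 and 2534, 2274, 1603 and 2169 CPM at P6 (replicates in order), and the ages overlapped. Its log2 fold change was 0.20 ± 0.19 (SE, edgeR adjusted p = 0.72). Nr2e3, the nuclear receptor that Nrl switches on, stood at 3258, 1967 and 2300 CPM at P4 and 2699, 3316, 2160 and 2862 CPM at P6 (edgeR adjusted p = 0.785). Crx, the homeobox factor shared by rods and cones, had 2736, 1879 and 2505 CPM at P4 and 1918, 2952, 2113 and 2297 CPM at P6, with a log2 fold change of -0.01 ± 0.18 (SE). None of these 3 passed the test.

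Of the 19 photoreceptor transcription factors tested, 2 rose, 1 fell and 16 did not pass, with a median log2 fold change of -0.01 against 0.00153 over all genes. Esrrb, an orphan nuclear receptor of rods, stood at 2.81, 5.11 and 2.46 CPM at P4 and 17, 10.8, 16.7 and 27.1 CPM at P6. The rise was 5.24-fold, with every P6 library above the P4 range and replicate 4 the highest (log2 fold change 2.39, SE 0.51, edgeR adjusted p = 0.0249). Thrb, the thyroid hormone receptor that cones use, rose 1.77-fold, from a range of 21.2 to 30.8 CPM to 41.5 to 48.5 CPM (edgeR adjusted p = 0.0347). Meis2, a homeobox gene of progenitors and several neurons, stood at 199.6, 210.2 and 249.8 CPM at P4 and 134, 166, 136 and 122 CPM at P6. Meis2 was lowest in P6 replicate 4, its ages did not overlap, and it fell 1.55-fold (log2 fold change -0.63, SE 0.14, edgeR adjusted p = 0.027). These 3 calls were each lost without P4 replicate 2, P4 replicate 3 or P6 replicate 4. The Esrrb call was also lost without P4 replicate 1, and the calls of Thrb and Meis2 without P6 replicate 1.

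Phototransduction genes moved in 1 direction. Of the 24 tested, 11 rose, none fell and 13 did not pass, against 0.858% of all genes called higher. The median log2 fold change was 1.26, and all 24 estimates were above 0. In 17 of the 24, every P6 library lay above every P4 library, against 4.83% of all genes. The summed level of the list went from 8529, 5445 and 5016 CPM at P4 to 14660, 14020, 9343 and 15540 CPM at P6, so the lowest P6 library was replicate 3 and the highest P4 library replicate 1.

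The transducin genes gave both calls and misses. Gngt1, the rod transducin gamma subunit, stood at 128, 90.4 and 67.1 CPM at P4 and 358, 238, 125 and 272 CPM at P6. Gngt1 rose 2.69-fold, although its ages overlapped (log2 fold change 1.43, SE 0.34, edgeR adjusted p = 0.0441). In that gene P6 replicate 3 lay under P4 replicate 1. Gnat1, the rod transducin alpha subunit, stood at 16.7, 15.9 and 15.6 CPM at P4 and 60.1, 38.9, 33.2 and 70.5 CPM at P6. Its groups did not overlap, but the difference did not pass (log2 fold change 1.69, SE 0.48, edgeR adjusted p = 0.0967), and the same held for Gnb1, the beta subunit, at means of 1090 CPM at P4 and 1985 CPM at P6 (edgeR adjusted p = 0.0642). Of the phosphodiesterase that transducin activates, the alpha subunit gene Pde6a stood at 20.8, 10.8 and 12.3 CPM at P4 and 96.5, 70.6, 39.9 and 85.9 CPM at P6. Pde6a rose 5.14-fold without overlap between the ages (log2 fold change 2.36, SE 0.44, edgeR adjusted p = 0.0102). The gene of its inhibitory gamma subunit, Pde6g, stood at 270.5, 206 and 147 CPM at P4 and 809, 461, 334 and 561 CPM at P6. The rise was 2.68-fold, with every P6 library above the P4 range and replicate 1 the highest (edgeR adjusted p = 0.031). Pde6b, which encodes the beta subunit and bears the rd1 allele in the mutant line, stood at 936, 488 and 519 CPM at P4 and 1129, 1641, 886 and 1508 CPM at P6. P4 replicate 1 exceeded P6 replicate 3, and the difference did not pass (log2 fold change 1.02, SE 0.27, edgeR adjusted p = 0.0705).

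The proteins that carry the rod current gave further calls. Slc24a1, the rod sodium, calcium and potassium exchanger (ENSMUSG00000034452, chromosome 9, 64922861 to 64951607 on GRCm38), stood at 3.52, 2.50 and 1.48 CPM at P4 and 20.7, 15.1, 11.7 and 37.3 CPM at P6. Slc24a1 was highest in P6 replicate 4, its ages did not overlap, and it rose 8.68-fold (log2 fold change 3.12, SE 0.55, edgeR adjusted p = 0.00854). Cnga1, the alpha subunit of the cGMP-gated channel, stood at 58.6, 28.2 and 23.8 CPM at P4 and 151, 138, 82.4 and 190.4 CPM at P6. P6 values of Cnga1 all exceeded its P4 values, a rise of 3.89-fold (log2 fold change 1.96, SE 0.35, edgeR adjusted p = 0.00854). Its beta subunit gene Cngb1 had means of 436 CPM at P4 and 808 CPM at P6 and did not pass (edgeR adjusted p = 0.0904). The photoreceptor potassium channel subunit gene Kcnv2 had means of 141 CPM at P4 and 266 CPM at P6 and did not pass (edgeR adjusted p = 0.0797).

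Other proteins set how long the light response lasts. Rcvrn, a calcium sensor, stood at 25.7, 21.9 and 17.5 CPM at P4 and 200.2, 83.1, 54.2 and 114 CPM at P6. Rcvrn rose 5.39-fold without overlap between the ages (log2 fold change 2.43, SE 0.46, edgeR adjusted p = 0.0103). Sag, the rod arrestin, stood at 1219, 841 and 682 CPM at P4 and 2488, 2131, 1376 and 2168 CPM at P6. The rise was 2.29-fold, with every P6 library above the P4 range and replicate 1 the highest (log2 fold change 1.19, SE 0.27, edgeR adjusted p = 0.031). The genes of the transducin shut-off complex were split. Rgs9bp, its membrane anchor, stood at 38.9, 29.7 and 26.7 CPM at P4 and 70.4, 105, 68.99 and 146 CPM at P6. Rgs9bp was highest in P6 replicate 4, its ages did not overlap, and it rose 3.12-fold (edgeR adjusted p = 0.0263). Gnb5, its G beta subunit, rose 1.95-fold, from a range of 54.7 to 70.4 CPM to 91.6 to 146 CPM (edgeR adjusted p = 0.0391). Rgs9 itself had means of 197 CPM at P4 and 328 CPM at P6 (edgeR adjusted p = 0.18), and the kinase gene Grk1 160.4 CPM at P4 and 397 CPM at P6 (edgeR adjusted p = 0.0967), without passing. The number of called phototransduction genes was 0 without P4 replicate 2, 0 without P4 replicate 3, 5 without P6 replicate 4, 7 without P6 replicate 1 and 18 without P6 replicate 3, and the list median lay between 1.09 and 1.43 under every alternative run. Rgs9bp, Pde6g, Gnb5, Gngt1 and Gnat1 were named after their values were seen.

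**Figure D2:**
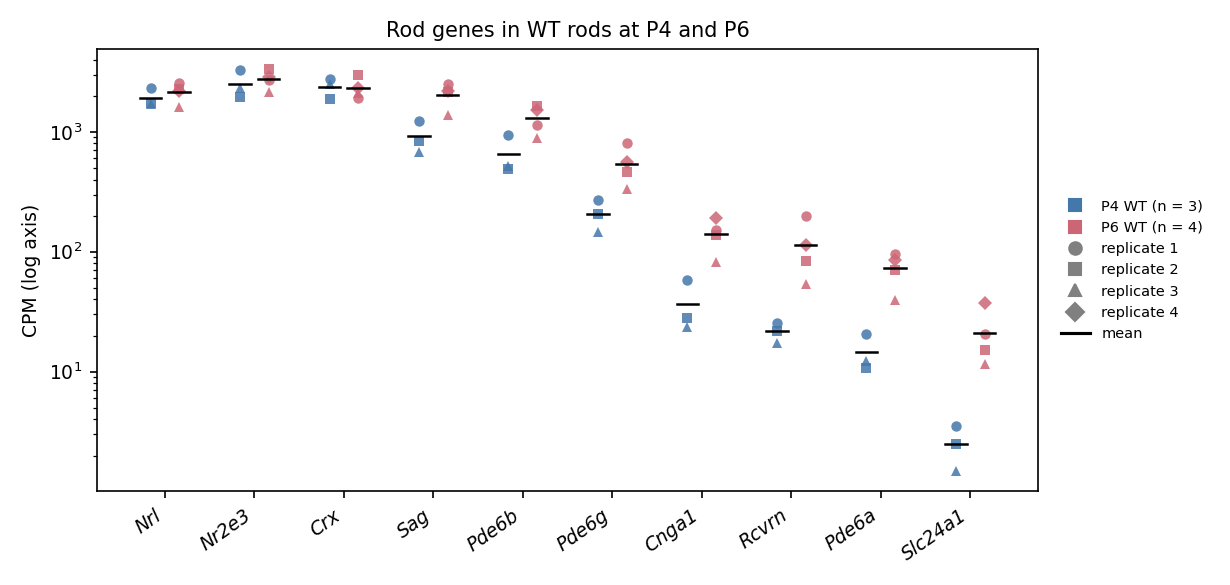
CPM on a log axis of 10 rod genes in the 3 P4 and 4 P6 WT libraries, 1 symbol per replicate number, with black bars at the group means. Nrl, Nr2e3 and Crx overlap between the ages, Sag to Slc24a1 except Pde6b do not, and P6 replicate 3 is the lowest P6 library for each gene drawn from Sag to Slc24a1. Levels of different genes are not corrected for length and are not compared.

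Of 32 outer segment and cilium genes, 3 rose, none fell and 29 did not pass, against 0.858% of all genes called higher. The median log2 fold change was 0.33. Impg1, a proteoglycan of the matrix around outer segments, stood at 36.3, 22.7 and 22.3 CPM at P4 and 96.4, 103, 54.2 and 122 CPM at P6. P6 values of Impg1 all exceeded its P4 values, a rise of 3.53-fold (log2 fold change 1.82, SE 0.33, edgeR adjusted p = 0.00854). Rp1l1, a protein of the axoneme in photoreceptor cilia, stood at 166, 154 and 123 CPM at P4 and 326, 390, 219 and 422 CPM at P6. Rp1l1 rose 2.35-fold without overlap between the ages (edgeR adjusted p = 0.0399). Cdhr1, the cadherin at the base of new outer segment discs, stood at 1161, 827 and 824 CPM at P4 and 1372, 1705, 1277 and 1888 CPM at P6. The rise was 1.69-fold, with every P6 library above the P4 range and replicate 4 the highest (edgeR adjusted p = 0.0419). The disc rim protein gene Prph2 had means of 1055 CPM at P4 and 1641 CPM at P6 and Rom1 872 CPM at P4 and 1061 CPM at P6, and neither passed (edgeR adjusted p = 0.208 and 0.561). Ift88, of intraflagellar transport, had means of 48.5 CPM at P4 and 46.1 CPM at P6 and did not pass (edgeR adjusted p = 0.953). The calls of Impg1, Rp1l1 and Cdhr1 were each lost without P4 replicate 2 or P4 replicate 3. Those of Rp1l1 and Cdhr1 were lost also without P6 replicate 1, 2 or 4, and that of Rp1l1 without P4 replicate 1.

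At the rod synapse, 5 of 26 genes rose, none fell and 21 did not pass, against 0.858% of all genes called higher. The median log2 fold change was 0.22. Slc17a7, the transporter that fills vesicles with glutamate, stood at 131, 77.99 and 91.9 CPM at P4 and 305, 306, 145 and 323 CPM at P6. Slc17a7 was highest in P6 replicate 4, its ages did not overlap, and it rose 2.76-fold (log2 fold change 1.46, SE 0.31, edgeR adjusted p = 0.0242). In P6 replicate 3 it stood well under the other P6 libraries and above the P4 libraries. Cplx4, a complexin of ribbon synapses, stood at 27.4, 20.2 and 13.8 CPM at P4 and 60.6, 54.9, 35.5 and 81.5 CPM at P6. P6 values of Cplx4 all exceeded its P4 values, a rise of 2.90-fold (edgeR adjusted p = 0.0263). Cabp4, the calcium-binding protein that tunes the presynaptic calcium channel, stood at 2.55, 1.55 and 1.95 CPM at P4 and 8.38, 5.57, 4.19 and 8.87 CPM at P6. Cabp4 rose 3.40-fold without overlap between the ages (edgeR adjusted p = 0.0335). Stx3, the syntaxin of ribbon synapses, rose 1.66-fold, with P6 replicate 3 at 522 CPM under P4 replicate 1 at 543 CPM (edgeR adjusted p = 0.0401). Syt1, the calcium sensor of release, stood at 347, 324 and 321 CPM at P4 and 443, 439, 534 and 432 CPM at P6. The rise was 1.42-fold, with every P6 library above the P4 range and replicate 3 the highest (edgeR adjusted p = 0.0455). Ctbp2, whose locus encodes the ribbon protein, had means of 291 CPM at P4 and 305 CPM at P6 (edgeR adjusted p = 0.807), and Bsn, of the active zone, 80.8 CPM at P4 and 78.9 CPM at P6 (edgeR adjusted p = 0.987), without passing. Without P4 replicate 2, P4 replicate 3, P6 replicate 1 or P6 replicate 4, no gene of this list was called, and without P4 replicate 1 there were 3.

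Amph, Sh3gl2, Nsf and Napb, in no list, were named after their values were seen. Amph, the endocytic adaptor amphiphysin (ENSMUSG00000021314, chromosome 13, 18948351 to 19150915 on GRCm38), stood at 49.97, 52.4 and 51.4 CPM at P4 and 136, 122, 143 and 162 CPM at P6. Amph was highest in P6 replicate 4, its ages did not overlap, and it rose 2.79-fold (log2 fold change 1.48, SE 0.16, edgeR adjusted p = 0.000105). Sh3gl2, the endophilin that shapes endocytic membrane, stood at 34.6, 35.5 and 27.6 CPM at P4 and 55.2, 51.96, 68.3 and 74.1 CPM at P6. P6 values of Sh3gl2 all exceeded its P4 values, a rise of 1.94-fold (log2 fold change 0.96, SE 0.15, edgeR adjusted p = 0.00461). Nsf, the ATPase that takes used fusion complexes apart, rose 1.44-fold, from a mean of 113 ± 11.3 CPM at P4 (SD, n = 3) to 160 ± 16.7 CPM at P6 (n = 4) (edgeR adjusted p = 0.0417). Its adaptor gene Napb rose 1.44-fold (edgeR adjusted p = 0.0466), with P6 replicate 1 under P4 replicate 1. The Amph call held without any single library. The Sh3gl2 call was lost without P4 replicate 3, and those of Nsf and Napb without P4 replicate 2, P4 replicate 3, P6 replicate 2 or P6 replicate 4, with that of Nsf lost also without P6 replicate 1.

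Markers of bipolar cells made up 5 of the 10 largest rises among non-overlapping genes whose mean log2 CPM reached 1. Of 15 bipolar markers tested, 7 rose, none fell and 8 did not pass, against 0.858% of all genes called higher. The median log2 fold change was 1.09, with 12 estimates above 0 and 3 below. In limma-voom, 8 were called higher and 1 lower. Grm6, the glutamate receptor of ON bipolar cells (ENSMUSG00000000617, chromosome 11, 50850685 to 50866208 on GRCm38), stood at 0.635, 0.256 and 0.411 CPM at P4 and 35.6, 36.1, 40.4 and 66.4 CPM at P6. Grm6 rose 105-fold, with every P6 library far above every P4 library and replicate 4 the highest (log2 fold change 6.72, SE 0.77, edgeR adjusted p = 0.000105). Scgn, the calcium-binding protein secretagogin, stood at 0.474, 0.273 and 0.44 CPM at P4 and 10.6, 10.8, 10.4 and 16.7 CPM at P6. Scgn rose 30.5-fold without overlap between the ages (log2 fold change 4.93, SE 0.57, edgeR adjusted p = 0.000105). Vsx1, a homeobox gene of cone bipolar cells, stood at 0.808, 0.322 and 0.369 CPM at P4 and 19.6, 12.3, 25.7 and 37.4 CPM at P6. The rise was 47.6-fold, with every P6 library above the P4 range and replicate 4 the highest (log2 fold change 5.57, SE 0.82, edgeR adjusted p = 0.00234). Bhlhe23, a transcription factor of rod bipolar cells, stood at 0.805, 0.162 and 0.224 CPM at P4 and 14.5, 7.21, 9.57 and 17.9 CPM at P6. Bhlhe23 was highest in P6 replicate 4, its ages did not overlap, and it rose 30.8-fold (log2 fold change 4.95, SE 0.87, edgeR adjusted p = 0.00854). Trpm1, the cation channel that Grm6 controls, stood at 0.368, 1.44 and 2.14 CPM at P4 and 9.26, 11.1, 11.7 and 42.3 CPM at P6. P6 values of Trpm1 all exceeded its P4 values, a rise of 14.1-fold (log2 fold change 3.82, SE 0.72, edgeR adjusted p = 0.0103). Its level in P6 replicate 4 stood far from the other P6 libraries.

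Isl1, a homeobox gene of ON bipolar cells and other retinal neurons, stood at 10.5, 7.53 and 8.23 CPM at P4 and 86.8, 47.5, 79.7 and 104 CPM at P6. Isl1 rose 9.22-fold without overlap between the ages (log2 fold change 3.20, SE 0.59, edgeR adjusted p = 0.00946). Grik1, the kainate receptor of OFF bipolar cells, stood at 5.26, 3.40 and 4.44 CPM at P4 and 40.2, 26.2, 29.4 and 39.01 CPM at P6. The rise was 7.85-fold, with every P6 library above the P4 range and replicate 1 the highest (log2 fold change 2.97, SE 0.55, edgeR adjusted p = 0.0103). Isl1 and Grik1 were named after their values were seen. Outside the list, and named after its values were seen, Gpr179, which anchors the Grm6 signalling complex, stood at 11.1, 9.36 and 10.1 CPM at P4 and 35.4, 34.4, 49.7 and 67.5 CPM at P6. Gpr179 was highest in P6 replicate 4, its ages did not overlap, and it rose 4.64-fold (log2 fold change 2.21, SE 0.46, edgeR adjusted p = 0.0233). Gabrr1, a subunit of the GABA receptor on bipolar terminals, stood at 0.317, 0.479 and 0 CPM at P4 and 7.03, 7.19, 8.92 and 19.5 CPM at P6. P6 values of Gabrr1 all exceeded its P4 values, a rise of 42.1-fold (log2 fold change 5.40, SE 0.76, edgeR adjusted p = 0.00156). It was also among the 10 largest rises. The markers that did not pass included Prkca, the protein kinase of rod bipolar cells, with means of 64.2 CPM at P4 and 107 CPM at P6 (edgeR adjusted p = 0.0566). Cabp5 had 5.57 CPM at P4 and 11.7 CPM at P6 (edgeR adjusted p = 0.171), and Pcp2 9.13 CPM at P4 and 12.6 CPM at P6 (edgeR adjusted p = 0.716). The summed level of the list, most of it from Otx2, which photoreceptors also express, was 2013 to 2403 CPM at P4 and 2106 to 2245 CPM at P6. In bulk RNA a change in the number of cells of a type and in the RNA per cell cannot be told apart. Of the list, 3 members were called without P4 replicate 2 and 3 without P4 replicate 3, and 7 without P6 replicate 1. The calls of Grm6, Scgn and Vsx1 held without any single library. Those of Bhlhe23, Trpm1, Isl1 and Grik1 were lost without P4 replicate 2 or 3. The Gabrr1 call held without any single library, and that of Gpr179 was lost without any 1 of the P4 libraries or without P6 replicate 4.

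Promoter windows of named genes were searched for motifs of photoreceptor and cell cycle factors, and those of Trpm1 and Bhlhe23 are printed because they held a match. The windows are the 250 bases before the RefSeq start on GRCm38.p6, 5′ to 3′ on the gene's strand. The motifs searched on both strands were GGATTA, the core of Crx sites, TGCTGA, a partial Nrl site, GGCGGGAA for E2F and TTTGAA, the cell cycle homology region. Of 32851 such windows, 6.25% held GGATTA, 16.1% TGCTGA and 1.86% GGCGGGAA. Capitals mark the matches. Trpm1 (chr7:64153585-64153834, plus strand) held TGCTGA, whose first base lay 188 bases before the start, and GGATTA, 34 bases before it. Bhlhe23 (chr2:180776901-180777150, minus strand) held TGCTGA on the opposite strand, read as TCAGCA, 38 bases before the start. Of the 31 genes searched that rose, 23 had windows, 30 in all, of which 4 held GGATTA, 4 TGCTGA, 1 GGCGGGAA and 6 TTTGAA. Of these 30, 13 overlapped an exon of their gene, and such windows were counted but not printed. A match describes the letters only.
Trpm1: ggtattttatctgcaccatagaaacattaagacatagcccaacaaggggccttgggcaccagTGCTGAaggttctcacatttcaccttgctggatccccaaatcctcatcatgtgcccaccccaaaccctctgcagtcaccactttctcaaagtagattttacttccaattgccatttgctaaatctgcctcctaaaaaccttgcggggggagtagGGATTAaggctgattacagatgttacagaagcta
Bhlhe23: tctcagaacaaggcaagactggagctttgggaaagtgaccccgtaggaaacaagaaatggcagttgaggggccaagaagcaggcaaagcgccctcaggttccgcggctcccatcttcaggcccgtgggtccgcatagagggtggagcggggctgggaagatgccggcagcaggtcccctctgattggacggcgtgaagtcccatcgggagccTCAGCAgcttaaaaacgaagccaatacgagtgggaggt

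Of the 7 called bipolar markers, Grm6, Scgn, Vsx1, Bhlhe23 and Isl1 had WT means that were higher at each later age. Trpm1 had 1.58 CPM at P2 and 1.32 at P4, and Grik1 33.7 CPM at P6 and 23.6 at P8. Mean Grm6 in WT was 0.346 CPM at P2, 0.434 at P4, 44.6 at P6, 81.6 at P8 and 168 at P10, with a P10 range of 37.4 to 263.4 CPM over 4 libraries. Mean Isl1 was 6.56 CPM at P2, 8.76 at P4, 79.6 at P6, 90.6 at P8 and 155 at P10. Mean Slc24a1 was 1.29 CPM at P2, 2.50 at P4, 21.2 at P6, 305 at P8 and 718 at P10. For Grm6, Vsx1 and Scgn the means at P2 and P4 were under 1 CPM and P4 to P6 was the step with the largest ratio. For Slc24a1, Pde6a and Cnga1 the P6 range lay between the P4 and P8 ranges without overlap. At P10 the range was 6.13 to 61.3 CPM for Vsx1 and 6.25 to 50.2 CPM for Bhlhe23, so in both the lowest P10 library lay below every P6 library. WT had 2 libraries at P2 and 2 at P8. These levels at other ages are a description, with no test.

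**Figure D3:**
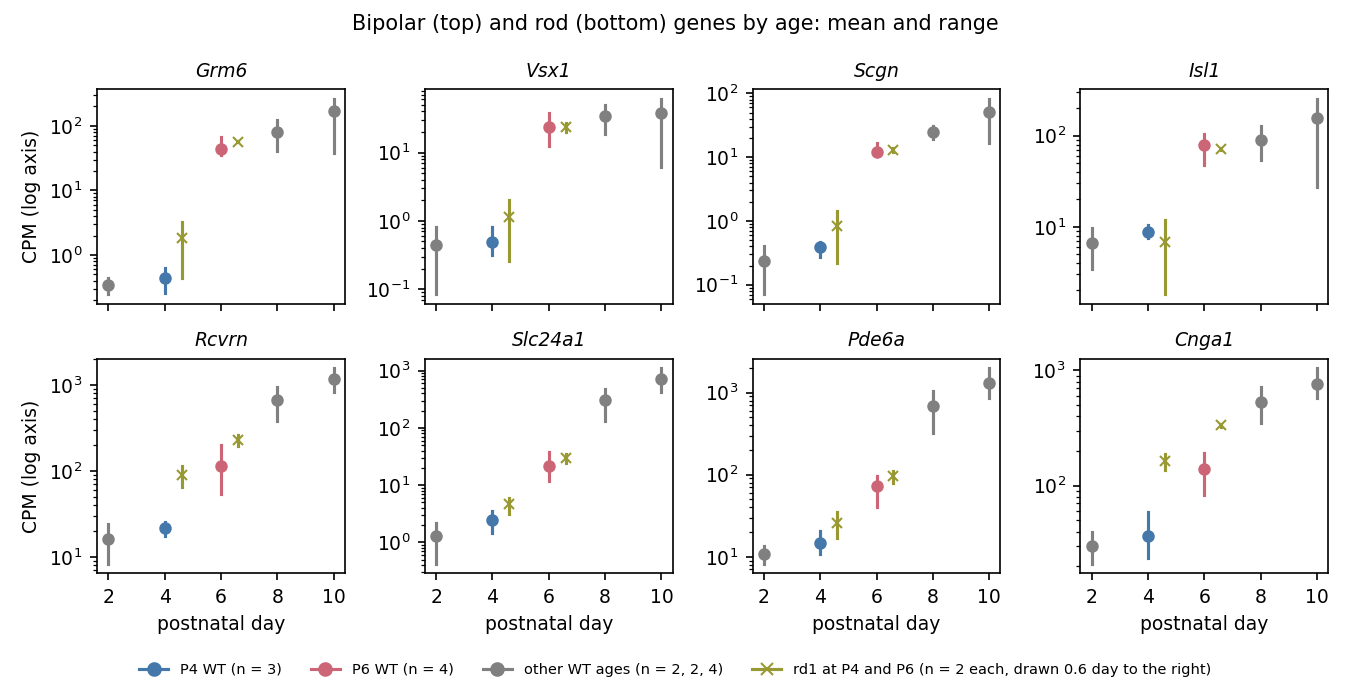
CPM on a log axis at each age for 4 bipolar and 4 rod genes, with points at the group mean and bars over the range of libraries. WT at P4 and P6 is blue and red, the other WT ages grey and rd1 olive. Grm6, Vsx1 and Scgn are under 1 CPM in WT at P2 and P4 and at least 10 CPM in each P6 library.

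Markers of other cells that could be in the sorted sample were read beside these genes. Over all genes tested, 0.858% were called higher and 0.179% lower. Of 16 markers of microglia and macrophages, 1 rose, Cx3cr1, the fractalkine receptor, from 1.34, 1.06 and 1.94 CPM at P4 to 13.3, 3.07, 4.93 and 5.65 CPM at P6 (log2 fold change 2.25, SE 0.52, edgeR adjusted p = 0.0347). All 16 estimates were above 0, and DESeq2 called 5 higher and limma-voom 1. In 4 of the 16, every P6 library lay above every P4 library, against 4.83% of all genes. The list median was 1.76, and 0.97 without P6 replicate 1, whose summed level was 144.9 CPM against 36.1 to 67.0 CPM in the other P6 libraries and 23.2 to 38.4 CPM at P4. Of 15 Muller glia markers, 2 rose. Abca8a, a lipid transporter, had 1 count in all P4 libraries together and 181 at P6, a ratio of 143 (95% interval 25.4 to 5700, for counting error only). Aqp4, a water channel, had 7 and 60 counts, a ratio of 6.79 (3.1 to 17.6). The list median was 0.31, but -0.08 without P6 replicate 1 and -0.01 in limma-voom, so its sign turned. Its summed level was 1085 to 1645 CPM at P4 and 921.7 to 2020 CPM at P6. None of 13 vessel and pericyte markers passed, with a median of 1.56 and summed levels of 190.8 to 386.2 CPM at P4 and 164.6 to 431.1 CPM at P6. In the lens list 1 of 6 rose, Cryab, a small heat shock protein that other cells also make, from 1.84, 2.02 and 1.49 CPM at P4 to 10.4, 4.58, 5.90 and 8.99 CPM at P6 (edgeR adjusted p = 0.0404), and Crygc, a lens crystallin, was at 0 in all 7 libraries.

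Of 14 cone markers, 2 rose, Thrb and Kcne2, a potassium channel subunit, the latter from 1.90, 1.84 and 1.06 CPM at P4 to 7.78, 4.09, 3.61 and 8.22 CPM at P6 (log2 fold change 1.93, SE 0.45, edgeR adjusted p = 0.0357). The cone median was -0.15, and the summed level was 2599 to 2949 CPM at P4 and 1439 to 2031 CPM at P6, without overlap. Ccdc136 had means of 1007 CPM at P4 and 513 CPM at P6 and the cone transducin gamma subunit gene Gngt2 674 CPM at P4 and 359 CPM at P6, and neither passed (edgeR adjusted p = 0.261 and 0.155). None of 16 amacrine and horizontal markers (median -0.07), 13 ganglion cell markers (0.43), 10 pigment epithelium markers (0.73) or 5 red blood cell markers (0.49) passed in edgeR. The red blood cell median was -0.60 without P6 replicate 4, and the amacrine and horizontal median 0.09 without P6 replicate 1, so their signs turned. The summed level of the ganglion cell list was 124 to 204 CPM at P4 and 162 to 340.4 CPM at P6, and that of pigment epithelium 22.2 to 36.2 CPM at P4 and 30.1 to 43.5 CPM at P6. For red blood cells it was 4.04 to 7.64 CPM at P4 and 1.38 to 23.5 CPM at P6. The part of these cells in the bipolar and glial rises was not tested. The calls of Cx3cr1, Abca8a, Aqp4, Cryab and Kcne2 were each lost without any 1 of the P4 libraries, and all except that of Abca8a also without P6 replicate 1 or 4.

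Cell cycle genes had mostly negative fold changes. Of 41 tested, 1 fell, none rose and 40 did not pass, against 0.179% of all genes called lower. The median log2 fold change was -1.17, and 40 of the 41 estimates were below 0. In 14 of the 41, every P6 library lay below every P4 library, against 5.47% of all genes. The summed level was 2276, 4024 and 2766 CPM at P4 and 1474, 1047, 2223 and 988.3 CPM at P6. P4 replicate 2 was the highest of all, and P6 replicate 3 came close to P4 replicate 1. Kif20a, a kinesin of cell division, stood at 22.1, 54.6 and 28.6 CPM at P4 and 12.3, 10.8, 24.2 and 10.6 CPM at P6. Kif20a fell 2.40-fold, although its ages overlapped (log2 fold change -1.26, SE 0.30, edgeR adjusted p = 0.0373), and P6 replicate 3 exceeded P4 replicate 1. Top2a, the topoisomerase of dividing cells, stood at 103, 244 and 142 CPM at P4 and 55.8, 41.5, 101 and 28.8 CPM at P6 and did not pass (log2 fold change -1.50, SE 0.38, edgeR adjusted p = 0.0567). The proliferation marker Mki67 stood at 193, 408 and 244 CPM at P4 and 95.5, 59.6, 183 and 45.5 CPM at P6 and did not pass (log2 fold change -1.54, SE 0.48, edgeR adjusted p = 0.124). Top2a and Mki67 were named after their values were seen. The number of list members called lower was 0 without P4 replicate 2, P4 replicate 3, P6 replicate 2 or P6 replicate 4, 22 without P6 replicate 3, 14 in DESeq2 and 33 in limma-voom, and the median lay between -1.53 and -0.81 under every alternative run. None of 18 progenitor markers passed in edgeR, although limma-voom called 6 lower. Their estimates were below 0 in 15 of 18, with a median of -0.44, and -0.77 without P6 replicate 1. Their summed level was 1535 to 2351 CPM at P4 and 1006 to 2001 CPM at P6, and their part in the cell cycle values was not tested.

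Outside that list, genes of mitosis and DNA replication were among the 32 that fell. Cks2, a partner of cyclin-dependent kinases, stood at 18, 38.5 and 19.2 CPM at P4 and 10.1, 5.79, 10.9 and 5.94 CPM at P6. The fall was 3.02-fold, with every P6 library below the P4 range and replicate 2 the lowest (log2 fold change -1.60, SE 0.32, edgeR adjusted p = 0.0177). Cdca3, a trigger of mitotic entry, stood at 44.5, 75.1 and 43.2 CPM at P4 and 16.4, 11.2, 38.4 and 10.01 CPM at P6. Cdca3 was lowest in P6 replicate 4, its ages did not overlap, and it fell 2.84-fold (edgeR adjusted p = 0.0334). Arhgap11a, a GTPase-activating protein of dividing cells, stood at 35.5, 78.4 and 59.1 CPM at P4 and 28.4, 11.6, 32.96 and 10.3 CPM at P6. P6 values of Arhgap11a all lay under its P4 values, a fall of 2.72-fold (edgeR adjusted p = 0.0335). Lockd, a noncoding RNA transcribed beside the cell cycle inhibitor gene Cdkn1b, stood at 43.98, 73.3 and 40.6 CPM at P4 and 20.9, 11.7, 20.9 and 7.33 CPM at P6. Lockd fell 3.38-fold without overlap between the ages (log2 fold change -1.76, SE 0.35, edgeR adjusted p = 0.0183). A further 6 were named after their values were seen. Racgap1 and Nuf2, which act in cytokinesis and at the kinetochore, fell 2.30-fold and 2.69-fold (edgeR adjusted p = 0.0347 and 0.0373). Ncapd2 of condensin fell 1.73-fold and Gmnn, the inhibitor of replication licensing, 2.32-fold (edgeR adjusted p = 0.0426 and 0.0312). Topbp1, of the replication checkpoint, fell 1.83-fold, and E2f1, the factor that drives S phase genes, 2.38-fold (edgeR adjusted p = 0.0257 and 0.0466). Each of these 10 calls was lost without P4 replicate 2, P4 replicate 3 or P6 replicate 4. Of the 32 lower genes, none was called in every fit with 1 library left out. The promoter of Arhgap11a (chr2:113848662-113848911, minus strand) held TTTGAA, a motif known from cell cycle genes, with its first base 99 bases before the start. That motif occurred in 5252 of the 32851 windows. Of the 12 genes searched that fell, 7 had a window and 3 of the 7 windows held it, and 4 of the 7 overlapped an exon of their gene.
Arhgap11a: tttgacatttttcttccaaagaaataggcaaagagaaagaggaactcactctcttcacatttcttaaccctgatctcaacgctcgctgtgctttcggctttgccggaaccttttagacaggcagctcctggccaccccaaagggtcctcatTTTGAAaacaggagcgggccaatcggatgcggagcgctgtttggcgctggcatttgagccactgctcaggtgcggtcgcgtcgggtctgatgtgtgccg

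**Figure D4:**
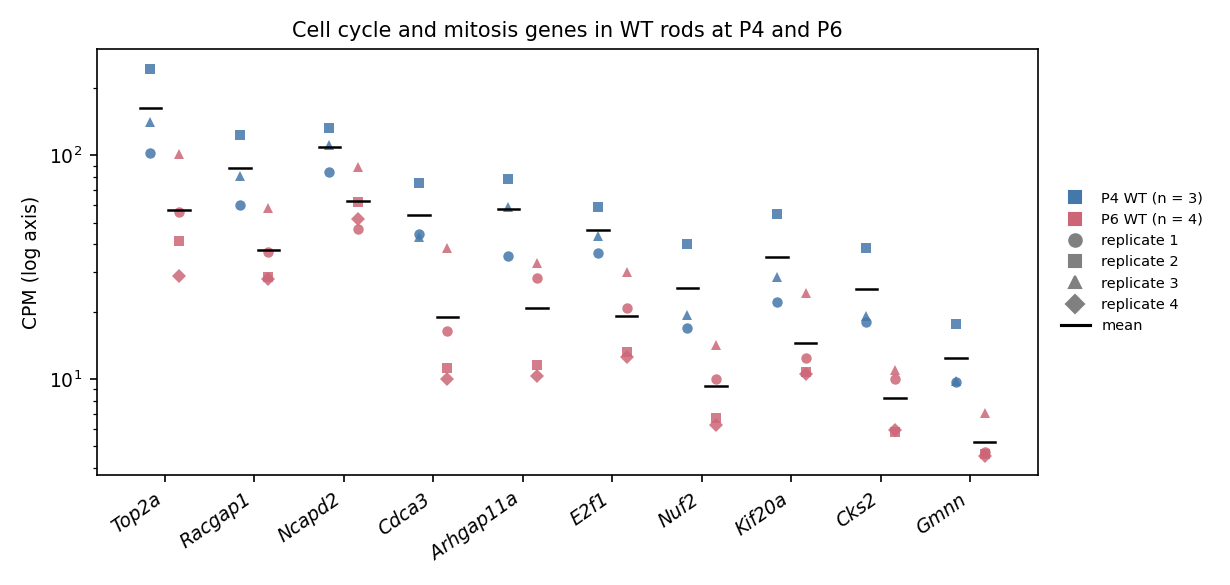
CPM on a log axis of 10 cell cycle and mitosis genes in the 3 P4 and 4 P6 WT libraries, 1 symbol per replicate number, with black bars at the group means. P4 replicate 2 is the highest and P6 replicate 3 the highest P6 library for each gene drawn. Top2a did not pass the test.

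Other genes that fell came from several classes. Mroh3 stood at 9.28, 10.9 and 6.44 CPM at P4 and 1.75, 3.28, 3.23 and 1.67 CPM at P6. The fall was 3.53-fold, with every P6 library below the P4 range and replicate 4 the lowest (log2 fold change -1.82, SE 0.40, edgeR adjusted p = 0.027). Mfap4, a microfibril protein of the extracellular matrix, stood at 83.6, 119.5 and 126 CPM at P4 and 28.97, 32.8, 49.2 and 33.6 CPM at P6. Mfap4 was lowest in P6 replicate 1, its ages did not overlap, and it fell 3.00-fold (log2 fold change -1.58, SE 0.38, edgeR adjusted p = 0.0417). Angpt1, the ligand of the endothelial receptor Tek, stood at 8.73, 12.5 and 12.9 CPM at P4 and 3.79, 4.76, 3.97 and 2.87 CPM at P6. P6 values of Angpt1 all lay under its P4 values, a fall of 2.91-fold (log2 fold change -1.54, SE 0.35, edgeR adjusted p = 0.0312). Aldh1a3, which makes retinoic acid, fell 2.75-fold, and Dnah8, a dynein of motile cilia, 2.78-fold (edgeR adjusted p = 0.0447 and 0.0249). The uncharacterised AI464131 fell 2.80-fold (edgeR adjusted p = 0.0177). Among the more abundant genes, Ctdsp2, a phosphatase that acts on the tail of RNA polymerase II, stood at 325, 413 and 383 CPM at P4 and 191, 216, 294 and 245 CPM at P6. Ctdsp2 fell 1.56-fold without overlap between the ages (log2 fold change -0.64, SE 0.14, edgeR adjusted p = 0.0249). H2afv, a histone H2A variant, fell 1.41-fold and Zfp41, a zinc finger protein, 1.63-fold (edgeR adjusted p = 0.0373 and 0.027). Each of these calls was lost without P4 replicate 2, P4 replicate 3 or P6 replicate 4, and all except that of AI464131 without P6 replicate 1 too.

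In glucose metabolism, 2 of 28 genes rose, none fell and 26 did not pass, against 0.858% of all genes called higher. The list median was 0.11, and 0.03 without P6 replicate 1. Hk1, the hexokinase that starts glycolysis, stood at 64.3, 62.2 and 67.8 CPM at P4 and 251, 149, 140.4 and 198 CPM at P6, with P4 libraries close together. It rose 2.92-fold (log2 fold change 1.55, SE 0.25, edgeR adjusted p = 0.00524). Aldoc, an aldolase, stood at 22.7, 27.3 and 22.8 CPM at P4 and 43.8, 35.96, 37.8 and 44.9 CPM at P6. The rise was 1.71-fold, with every P6 library above the P4 range and replicate 4 the highest (log2 fold change 0.77, SE 0.17, edgeR adjusted p = 0.025). Pkm had means of 1963 CPM at P4 and 1928 CPM at P6 and Ldha 2108 CPM at P4 and 2035 CPM at P6, the enzymes of the last steps to lactate, and neither passed (edgeR adjusted p = 0.995 and 0.979). Got1, the cytosolic aminotransferase of the malate and aspartate shuttle, stood at 52.1, 61.5 and 41.8 CPM at P4 and 102, 105, 76.99 and 109.7 CPM at P6. Got1 was highest in P6 replicate 4, its ages did not overlap, and it rose 1.94-fold (log2 fold change 0.96, SE 0.20, edgeR adjusted p = 0.0239), as 1 of 18 genes of the tricarboxylic acid cycle list. Ckmt1, the mitochondrial creatine kinase, stood at 23.1, 22.3 and 14.8 CPM at P4 and 76.9, 54.4, 37.2 and 77.01 CPM at P6. P6 values of Ckmt1 all exceeded its P4 values, a rise of 3.14-fold (log2 fold change 1.65, SE 0.31, edgeR adjusted p = 0.0103), and was named after its values were seen. None of 72 nuclear subunits of oxidative phosphorylation passed, with a median of 0.11, and 0.02 without P6 replicate 1. All 51 ribosomal protein genes had negative estimates, and none passed in edgeR with all libraries. Limma-voom called 11 of them lower, and edgeR without P6 replicate 1 called 2 lower. The list median was -0.30. That median lay between -0.44, without P6 replicate 1, and -0.20, without P4 replicate 2, over the alternatives run. The calls of Hk1, Aldoc, Got1 and Ckmt1 were lost without P4 replicate 2 or 3, and those of Aldoc and Got1 also without P4 replicate 1, P6 replicate 1 or P6 replicate 4. The Hk1 window (chr10:62379909-62380158, minus strand) is printed for its match to TGCTGA on the opposite strand, read as TCAGCA, with its first base 156 bases before the start.
Hk1: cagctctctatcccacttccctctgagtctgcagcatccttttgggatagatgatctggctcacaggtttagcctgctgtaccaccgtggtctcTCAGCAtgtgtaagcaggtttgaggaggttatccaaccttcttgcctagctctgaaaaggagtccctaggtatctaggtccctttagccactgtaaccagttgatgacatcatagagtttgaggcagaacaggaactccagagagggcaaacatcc

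Further genes rose that belonged to none of these lists. Stom, the membrane protein stomatin, stood at 32.7, 27.2 and 23.2 CPM at P4 and 73.2, 78.7, 79.5 and 121 CPM at P6. Stom rose 3.22-fold without overlap between the ages (log2 fold change 1.69, SE 0.23, edgeR adjusted p = 0.000846). Gckr, the glucokinase regulator, stood at 1.65, 1.63 and 2.55 CPM at P4 and 6.78, 7.93, 6.48 and 6.42 CPM at P6. The rise was 3.56-fold, with every P6 library above the P4 range and replicate 2 the highest (log2 fold change 1.83, SE 0.27, edgeR adjusted p = 0.00264). Both calls held without any single library, and both genes were named after their values were seen. Trnp1, a nuclear protein of developing cortex, stood at 2.31, 1.74 and 1.83 CPM at P4 and 25.2, 17.6, 24.4 and 41.9 CPM at P6. Trnp1 was highest in P6 replicate 4, its ages did not overlap, and it rose 14.1-fold (log2 fold change 3.82, SE 0.60, edgeR adjusted p = 0.00461). Otor, a small secreted protein, rose 25.3-fold and Fam135b 10.4-fold (edgeR adjusted p = 0.027 and 0.00803), both from low levels. Otor had 0 to 0.367 CPM at P4 and 2.59 to 5.50 CPM at P6, and Fam135b 0.654 to 1.11 CPM at P4 and 6.08 to 13.65 CPM at P6. Plekhb1, a membrane-binding protein of photoreceptors, stood at 421, 332 and 306 CPM at P4 and 759.9, 587, 552 and 889 CPM at P6. P6 values of Plekhb1 all exceeded its P4 values, a rise of 2.01-fold (log2 fold change 1.01, SE 0.22, edgeR adjusted p = 0.027). Rdh12, a photoreceptor retinol dehydrogenase, rose 3.40-fold, and Aipl1, the chaperone that assembles the rod phosphodiesterase, 2.23-fold (edgeR adjusted p = 0.027 and 0.0471), both named after their values were seen. The calls of Trnp1, Otor, Fam135b, Plekhb1, Rdh12 and Aipl1 were lost without P4 replicate 2 or 3. Those of Otor, Plekhb1, Rdh12 and Aipl1 were lost also without P6 replicate 4, those of Otor, Plekhb1 and Aipl1 without P6 replicate 1, and that of Aipl1 without P6 replicate 2. The ribosomal RNA repeat Rn18s-rs5, named after its values were seen, was also called higher. It went from 531, 694 and 580 CPM at P4 to 38610, 4992, 1600 and 551 CPM at P6, with P6 replicate 4 among the P4 values. The call was lost without P6 replicate 1 or any 1 of the P4 libraries.

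**Figure D5:**
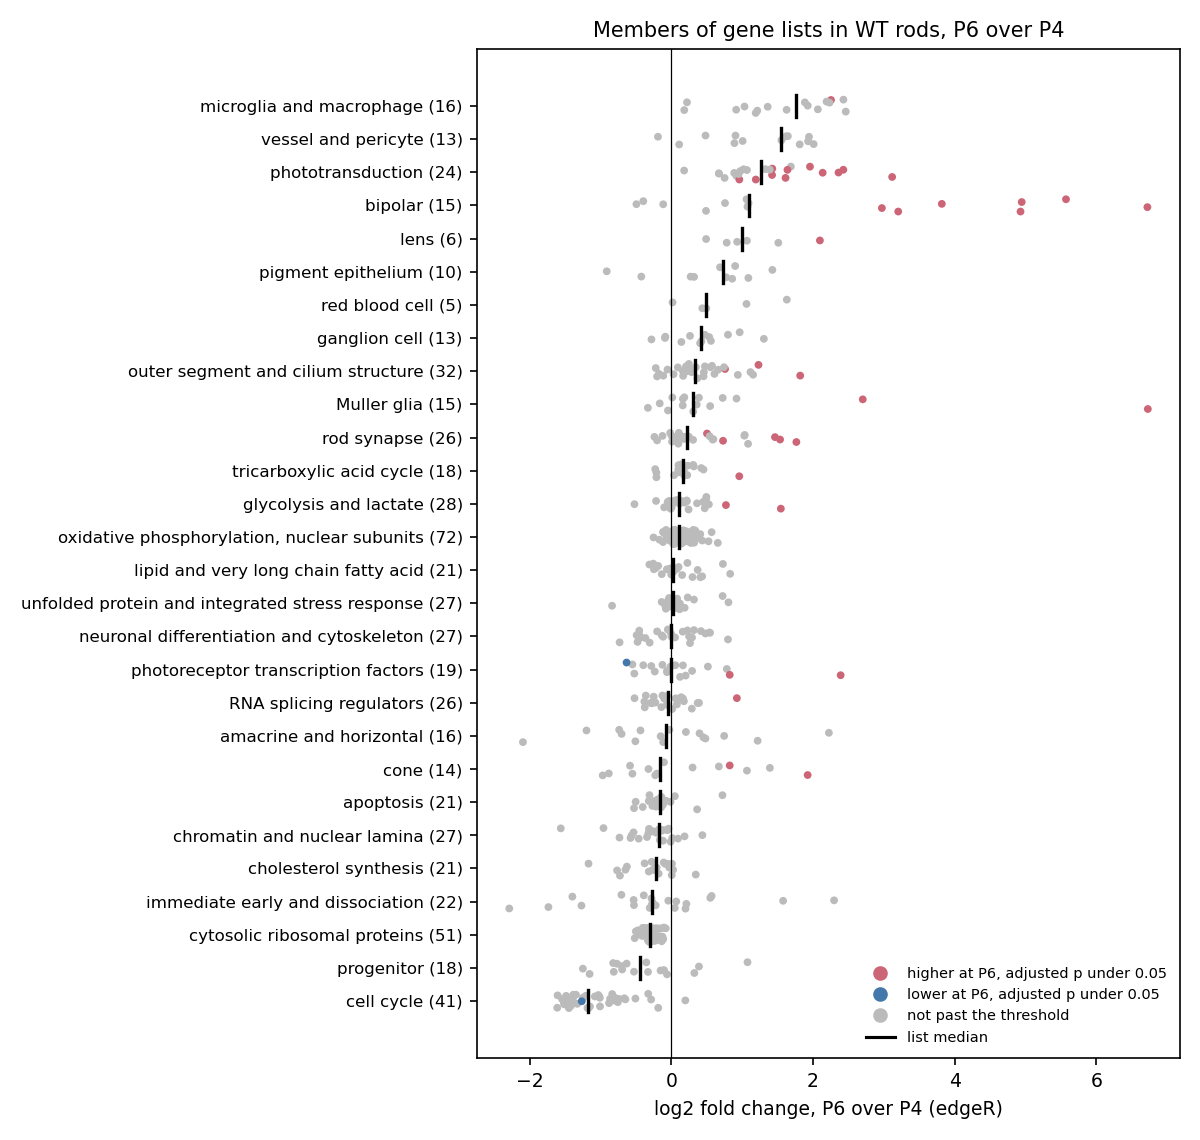
Log2 fold change of P6 over P4 for each tested member of the 28 gene lists, ordered by median, the number tested in brackets, with black bars at the list medians. Red and blue members passed an adjusted p of 0.05. Microglia and macrophage (1.76) and vessel and pericyte (1.56) have the highest medians, followed by phototransduction (1.26) and bipolar (1.09), and cell cycle (-1.17) has the lowest.

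The same step was read in rd1 rods, which share no library with the WT comparison. All 153 genes that rose in WT and all 32 that fell had estimates of the same sign in rd1, against 67.5% of all 17830 genes. The 67.5% includes the many genes that were not called. The median log2 fold change of the 153 was 1.54 in WT and 1.15 in rd1, and of the 32 it was -1.24 in WT and -1.14 in rd1. These genes were chosen by their WT estimates, which moves the WT medians away from 0. The medians therefore do not compare the size of the step between genotypes. Tested by itself, rd1 gave 5 called genes (0.028%), which were Grm6, Amph, Scgn, Ablim1 and Car10, all higher at P6. Ablim1 and Car10 were named after their values were seen. Grm6 had a log2 fold change of 5.00 ± 0.78 (SE) in rd1, Scgn 3.99 ± 0.62 and Amph 1.43 ± 0.21. Car10, a carbonic anhydrase-related protein, rose in WT from 3.53, 4.62 and 5.58 CPM at P4 to 36.2, 29.1, 28.9 and 43.2 CPM at P6 (log2 fold change 2.94, SE 0.47, edgeR adjusted p = 0.00461), and its call in WT was lost without P4 replicate 2. The difference between the WT and rd1 steps passed the edgeR test for 0 of 17830 genes. At an unadjusted edgeR p under 0.05 there were 302 of the 17830 genes, a share below 0.05, and DESeq2 called 2 after adjustment. The WT minus rd1 difference was 0.05 (95% interval -0.49 to 0.59) on the log2 scale for Amph, -0.09 (95% interval -1.02 to 0.83) for Pde6b, 0.90 (95% interval -0.24 to 2.04) for Cnga1 and 1.73 (95% interval -0.71 to 4.16) for Grm6. These 4 intervals include 0, which does not show that the steps were alike. Of the other named genes, the interval excluded 0 for Abca8a at 4.45 (95% interval 0.33 to 8.57), Cx3cr1 at 1.96 (95% interval 0.28 to 3.64), Aqp4 at 1.93 (95% interval 0.10 to 3.76) and Rn18s-rs5 at 3.35 (95% interval 0.37 to 6.33), all larger in WT, and none of these passed after adjustment (edgeR adjusted p = 1 for each). The Abca8a estimate rests on 1 count in WT at P4. Intervals were computed for all 99 named genes, many of them named for their WT step, and are not adjusted for that number. Without P4 rd1 replicate 2, 11 genes passed.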

How the data were processed

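Rods of TgNrlp-GFP mice were purified by flow cytometry, per the labels' protocols, and stranded mRNA libraries were read as 125-base pairs. The tools named in the submitters' processing notes are kallisto (0.42.4) for GRCm38.p5 and, at version 3.32.1, edgeR, and the step from transcripts to genes is not given in the sources used here. The authors deposited estimated counts per gene (expected counts, not whole numbers), made with these tools per the submitters' processing notes. They were rounded for the tests. CPM were computed here from these counts and the library totals, and 1 column of the table without a sample was not used. Levels and SD are over libraries.

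Genes were kept with filterByExpr (18608 of 45594) with TMM scaling. A single model in edgeR 4.0.16 (R 4.3.3) gave 1 mean for each of 10 groups of age and genotype over 27 samples, with 17 residual degrees of freedom. P6 rd1 replicates 1 and 3 differed far less than other pairs (chi-square per degree of freedom 2.71 against at least 10.4) and were averaged. Tests were quasi-likelihood, two-sided and adjusted by Benjamini-Hochberg over all genes tested, with a threshold of 0.05. The SE is the log2 fold change over the square root of F. Intervals of WT minus rd1 differences use the t distribution with 17 degrees of freedom. Intervals of count ratios are exact at 95%. They hold for counting error alone, because PCR copies were not marked by molecular identifiers.

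Genes were named by rule: 5 rod genes, the 10 largest changes in each direction among called, non-overlapping genes whose mean log2 CPM reached 1, the 5 most abundant in each direction, and up to 4 called members by p of each of 28 lists, or the member with the smallest p where none was called. Predicted genes and pseudogenes were counted only, and some genes that the rule names are not reported here. Genes said to be named after their values were seen fall outside it. The members and lists were chosen with earlier results of these data known, so a list's count is no independent evidence of its direction. Lists are described by counts and medians, with no test of the list. The shares to set beside each count are those over all genes tested, 0.858% higher and 0.179% lower.

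Alternatives were DESeq2 1.42.0, limma-voom (limma 3.58.1), other scalings, filters and sample sets, a replicate block and each library left out. In data simulated for this comparison on 18031 genes, edgeR recovered 54% of 2-fold and 89% of 4-fold changes, with 2.05% false calls. The changed genes were drawn from the better counted ones, and each gene varied independently. Shifts shared by many genes of a library were not simulated, so these rates need not hold for the real libraries.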

Additional observations from a re-analysis of the deposited data

Results flagged for a closer look

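In P6 WT, 106 sets of 4 values were looked at for a library that stood apart. Its gap to its nearest neighbour had to be over 0.829 of the whole range, and 16 such sets were found. About 1 in 20 independent sets would pass by chance, but these share the same 4 libraries and many are genes chosen for their change. The 16 are therefore a description. Replicate 1 was known beforehand to stand apart in genes detected. In replicate 4 the highest value stood apart for Grm6 (66.41 CPM, others 35.56 to 40.39), Scgn (16.68, others 10.41 to 10.81), Trpm1 (42.34, others 9.257 to 11.68), Gabrr1 (19.54, others 7.029 to 8.922), Aqp4 (2.04, others 0.7133 to 0.9311) and Stom (121 CPM, others 73.24 to 79.55). In replicate 3 the highest value stood apart for Syt1 (533.6 CPM, others 431.7 to 442.7), Kif20a (24.22, others 10.58 to 12.35) and Gmnn (7.039, others 4.529 to 4.713), and the lowest for Slc17a7 (144.7 CPM, others 305 to 323.4). In replicate 1 the highest stood apart for Cox5a (101.6 CPM, others 55.57 to 58.8), Rn18s-rs5 (38610 CPM, others 551.1 to 4992), genes detected (27119, others 22731 to 23255), the share in the top 10 genes (11.47%, others 3.812% to 3.954%) and ribosomal RNA (4.108%, others 0.1175% to 0.5817%), and the lowest for the protein-coding share (91.52%, others 95.88% to 96.58%).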

How the results depend on the processing

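The 185 called genes became 534 in DESeq2 (380 higher, 154 lower) and 889 in limma-voom (374 higher, 515 lower), so the share of higher genes went from 82.7% to 71.2% and 42.1%. Without a filter on low counts there were 518 (68.9% higher). With only the 7 P4 and P6 WT libraries in the fit there were 107, and with the 15 WT libraries 29. Leaving out 1 library gave 9 to 416, lowest without P4 replicate 3 (9) and P4 replicate 2 (10), then P6 replicate 4 (60) and P6 replicate 1 (92), and highest without P6 replicate 3. The cause of these shifts was not tested. Other scalings, a stricter filter and all 28 libraries kept apart gave 186 to 246.

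Replicate numbers did not pair the samples: deviations of same-numbered P4 and P6 libraries correlated at -0.225, -0.256 and 0.128. With the replicate block, 42 genes were called in the 7 libraries, against 107 without it, and of the phototransduction list 5, against 9. For the difference from rd1 the block gave 0.

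The 0 genes whose step differed between WT and rd1 became 2 in DESeq2 and 7 without a filter, and 0 to 11 with 1 library left out, 11 without P4 rd1 replicate 2.

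Crx, at -0.01 on the log2 scale, turned slightly positive with DESeq2 (0.00369), its size factors (0.00369), upper quartile scaling (0.0281), a stricter filter (0.0165), the 7 libraries alone (0.0147), the block (0.0257) and without P4 replicate 1 or 3 or P6 replicate 1, 3 or 4. With 1 library left out it ranged from -0.16 to 0.116, and it passed under none of these. No other named gene changed sign. At these depths edgeR missed close to as many 2-fold changes as it found on simulated data, so a gene that did not pass may still have changed.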

Other observations

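Several lists not described above gave 0 or 1 call in edgeR, and the counts and misses below are those of edgeR. Limma-voom called 5 chromatin and nuclear lamina genes and 3 cholesterol synthesis genes lower, and 2 genes of fatty acid metabolism higher. In DESeq2 these numbers were 2, 2 and 1. Of 26 splicing regulators, 1 rose, Mbnl1, which sets the splicing of differentiating tissues, from 75.05, 49.2 and 57.2 CPM at P4 to 90.2, 122, 105 and 137 CPM at P6 (log2 fold change 0.93, SE 0.19, edgeR adjusted p = 0.0183). Its call was lost without P4 replicate 2, P4 replicate 3 or P6 replicate 4. None of 21 cholesterol synthesis genes passed, with a median of -0.22. Srebf2, the factor that drives that pathway, stood at 162, 206 and 245 CPM at P4 and 106, 129.6, 142 and 110 CPM at P6, without overlap (edgeR adjusted p = 0.0567). None of 27 neuronal differentiation genes passed (median -0.0024). Map2, the dendritic microtubule protein, stood at 349, 345 and 332 CPM at P4 and 524, 470.1, 483 and 485 CPM at P6, also without overlap (edgeR adjusted p = 0.0967). None of 27 chromatin and nuclear lamina genes passed (median -0.17), and the lamin gene Lmnb1 stood at 156, 232 and 187 CPM at P4 and 124, 122, 167 and 108 CPM at P6 (edgeR adjusted p = 0.0702). None of 27 stress response genes (median 0.023) and none of 21 apoptosis genes (median -0.16) passed. Casp6, an effector caspase, stood at 19.9, 21.1 and 21.3 CPM at P4 and 15.5, 14.4, 15.2 and 12.2 CPM at P6 (edgeR adjusted p = 0.18), and the stress target Asns at 10.2, 8.41 and 6.22 CPM at P4 and 13.8, 15.5, 14.5 and 12.99 CPM at P6 (edgeR adjusted p = 0.109). Of 21 genes of fatty acid metabolism, none passed (median 0.03), and Cpt1a, which admits fatty acids to mitochondria, stood at 131, 80.3 and 95.3 CPM at P4 and 159.7, 229, 115 and 209.6 CPM at P6 (edgeR adjusted p = 0.131).

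None of 22 immediate early and dissociation genes passed. Their median was -0.27, and -0.99 without P6 replicate 1 but 0.81 without P4 replicate 2, so its sign turned. The summed level was 2326 CPM in P4 replicate 2 and 1846 CPM in P6 replicate 1, against 734.4 to 852.2 CPM in the other 5 libraries. Acad10, an acyl-CoA dehydrogenase named after its values were seen, had P4 libraries at 56.2, 56.4 and 55.9 CPM and P6 libraries at 24.2, 33.8, 25.1 and 30.5 CPM, and fell 1.94-fold (log2 fold change -0.96, SE 0.18, edgeR adjusted p = 0.0103). That call was lost without P4 replicate 2 or 3. The progenitor marker Ccnd1, a cyclin, stood at 480.4, 803 and 707 CPM at P4 and 346, 149, 462 and 143 CPM at P6 without overlap and did not pass (edgeR adjusted p = 0.203). Ptf1a, the factor of amacrine and horizontal cell fates, stood at 1.38, 3.10 and 2.57 CPM at P4 and 0.79, 0.172, 0.96 and 0.238 CPM at P6 without overlap (edgeR adjusted p = 0.0563).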
